A study of Mus musculus with 24 samples.

Results

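The 9 genes described here encode the myogenic regulatory factors Myod1, Myf5, Myog and Myf6, the MEF2 factors Mef2a, Mef2c and Mef2d, and the upstream factors Pax7 and Six4. They were chosen by name, as transcription factor genes of the myogenic program and not by a threshold on their values, and are 9 of 35968 genes measured. Earlier results of these data were known when they were chosen. RNA was sequenced from C2C12, a mouse myoblast line, kept undifferentiated and below confluence. All cells were taken 48 h after transfection with small interfering RNA. Each of 4 groups held 3 libraries, and the groups received siRNAs against Fem1b and Keap1 together (siFem1b/Keap1), an siRNA against Fem1b (siFem1b), an siRNA against Keap1 (siKeap1), or a non-targeting siRNA (siCont). KEAP1 and FEM1B are the substrate receptors of separate cullin ubiquitin ligases. KEAP1 directs the degradation of the oxidative stress factor NRF2, while FEM1B belongs to the reductive stress response. The question is how loss of either receptor, and of both, changes the transcriptome of the myoblasts.

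The myogenic regulatory factors are basic helix-loop-helix proteins that bind E-box sequences with E-protein partners and switch on muscle genes. MYOD1 and MYF5 commit cells to the muscle lineage and are already made by proliferating myoblasts, whereas myogenin, the product of Myog, appears as cells leave the cell cycle and differentiate, and MYF6 acts mainly in late differentiation. MEF2 proteins are MADS-box factors that act with them at muscle promoters, while PAX7 marks muscle stem cells and SIX4 is a homeodomain factor that acts on myogenic genes.

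The siRNAs are shown because each can also pair through its seed with other messages. The sequences are the sense strands given with the study, and capitals mark bases 12 to 18, the 7 bases a message must hold to pair with guide positions 2 to 8.
siKeap1: gcgccaauguuGACACGGa
siFem1b: gaagaucagugCAGAAUUa
siCont: ugguuuacaugUUUUCUGa
Among the factor genes, the siKeap1 seed match was found in the 3' untranslated region of Six4 alone, once. The siFem1b match occurred there as 2 copies in Six4 and 1 copy in Mef2c. The siCont match was the most frequent, with 2 copies each in Mef2c and Six4 and 1 copy each in Myf5 and Mef2a, and siCont is what the other groups are compared with. Such matches occurred in 2.2% of 18987 genes for siKeap1, 11.5% for siFem1b and 21.2% for siCont, and what part they play in any value below was not tested.

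Keap1 stood at 15.2% of its siCont level in siFem1b/Keap1 libraries and at 16.2% in siKeap1 libraries, and Fem1b at 13.1% in siFem1b/Keap1 and 13.7% in siFem1b. Libraries held 31.9 M to 43.0 M counts in genes, and 14577 genes, all 9 factor genes among them, passed the filter on low counts and were tested. The labels do not say whether the 3 libraries of a group came from separate cultures, so the p-values rest on a spread between libraries that could be technical. The 8 myoblast markers summed to 2481 to 2554 CPM (counts scaled to a library of 1000000) in siFem1b/Keap1, 2738 to 2822 in siFem1b and 2188 to 2299 in siKeap1, against 2375 to 2396 CPM in siCont. These sums did not overlap between groups, and were highest in siFem1b and lowest in siKeap1. Single markers moved both ways. In siFem1b 6 were higher and 1, Met, lower than in siCont, beside 30.0% and 32.1% of all tested genes. In siKeap1 2, Met and Ncam1, were higher and 3 lower, beside 18.4% and 23.8%. Of markers of other cell types, the 6 for macrophages summed to 19.5 to 20.6 CPM in siFem1b/Keap1, 11.3 to 12.3 in siFem1b and 17.3 to 18.9 in siKeap1, against 11.05 to 12.7 CPM in siCont. All 3 that were tested, Cd68, Csf1r and Cd14, rose in siKeap1, Cd68 2.30-fold, beside 18.4% of all tested genes. Csf1r was near the floor, at 0.962 CPM in siKeap1 and 0.258 in siCont, and was not called in siFem1b/Keap1 against siCont. Adgre1 and C1qa were at 0 in every group. Adipocyte markers, nearly all from Pparg, summed to 44.7 to 45.7 CPM in siFem1b/Keap1, 30.5 to 33.9 in siFem1b and 39.5 to 40.0 in siKeap1, against 31.4 to 32.6 CPM in siCont. Fibroblast-like markers reached at most 14.3 and endothelial markers 2.14 CPM, each with the lowest sums in siCont. Osteoblast markers, nearly all from Runx2, summed to between 73.1 and 86.45 CPM, lower in both groups given the Fem1b siRNA. Sp7, the other osteoblast marker tested, was called higher than in siCont in both. It had 0.55 CPM in siFem1b/Keap1 and 0.54 in siFem1b, against 0.28 CPM in siCont. The 7 epithelial markers moved with the siRNAs, mostly through Krt14, with Epcam at 0.0461 CPM or less in every group. They summed to 40.5 to 42.4 CPM in siFem1b/Keap1, 15.0 to 17.5 in siFem1b, 62.8 to 67.7 in siKeap1 and 9.63 to 11.5 in siCont. The order of these sums is that of Krt14. Of 5 tested, 3 (Cdh1, Krt8 and Krt18) were higher and 1, Krt14, lower in siFem1b/Keap1 than in siKeap1, beside 32.0% and 31.6% of all tested genes. Cdh1 had 4.03 CPM in siFem1b/Keap1, 1.79 in siFem1b and 0.206 in siKeap1, against 0.13 CPM in siCont. The part of these markers in the results was not tested. In bulk RNA, fewer cells of a kind and less RNA per cell cannot be told apart.

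**Figure D1:**
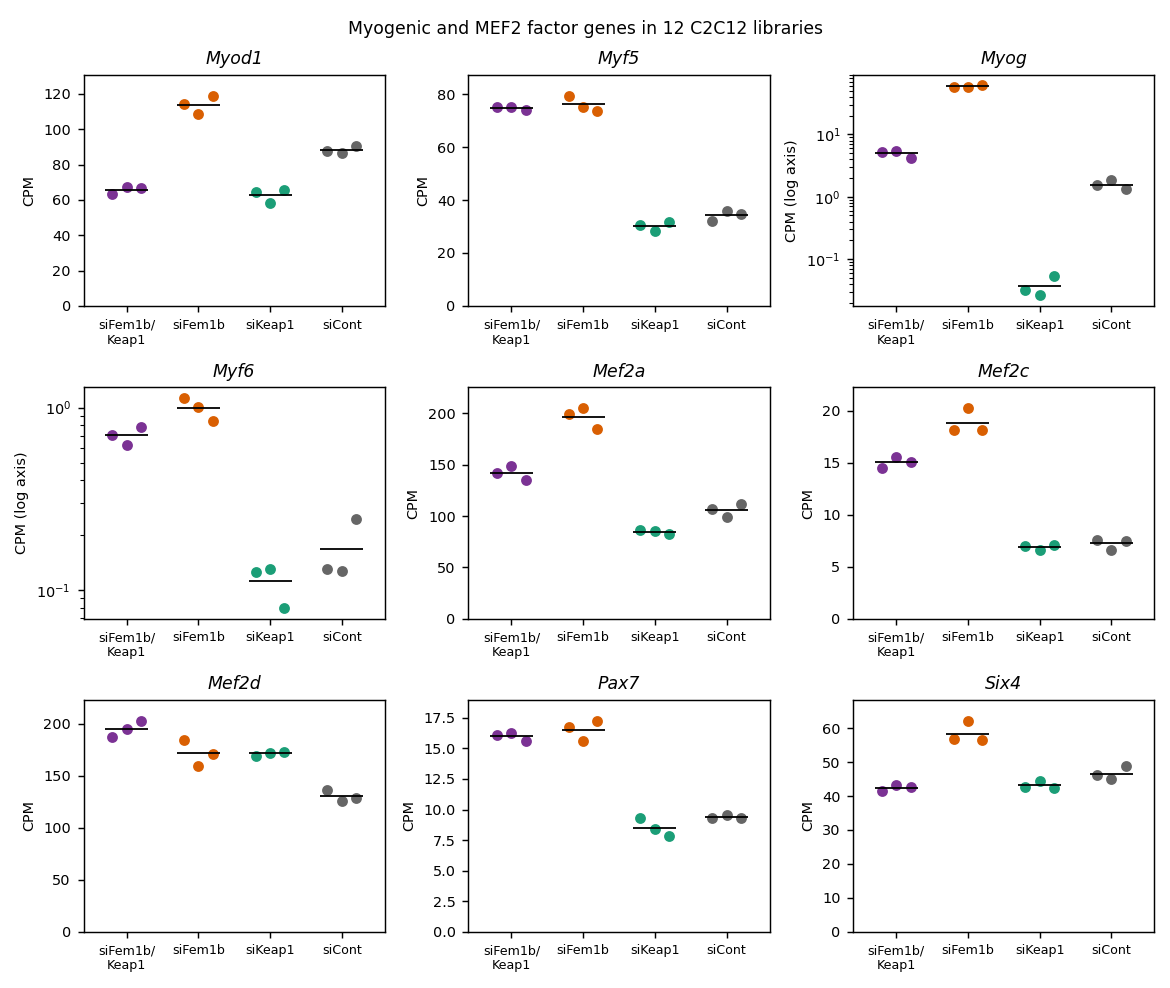
CPM (y axis, logarithmic for Myog and Myf6) of the 9 factor genes in each of 12 libraries (points) with the mean of each group (line). Myog spans 0.0260 CPM in a siKeap1 library to 62.2 CPM in a siFem1b library, while Mef2d stays between 126 and 202.5 CPM.

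Corrected for transcript length (TPM, the share of transcripts scaled to 1000000), Myod1 was the most abundant factor message in siCont, at 77.1 ± 4.6 TPM (SD, n = 3). Mef2d followed at 50.9 ± 4.2, Mef2a at 40.2 ± 3.0, Myf5 at 25.8 ± 0.97 and Six4 at 10.6 ± 0.74 TPM. Mef2c had 3.77 ± 0.68, Pax7 2.70 ± 0.25, Myog 1.74 ± 0.33 and Myf6 0.240 ± 0.077 TPM in siCont. The ranges of neighbours in this order did not overlap. In siFem1b, Myog reached 73.2 ± 4.2 TPM, level with Mef2a at 78.5 ± 3.1 and Mef2d at 77.5 ± 3.7 TPM, whose ranges overlapped, and below Myod1 at 109 ± 5.8 TPM. In siFem1b/Keap1, Mef2d was the most abundant at 84.0 ± 3.2 TPM, and Myod1 (61.3 ± 2.3), Myf5 (60.9 ± 1.2) and Mef2a (57.3 ± 3.9 TPM) followed with overlapping ranges. Mef2d also led in siKeap1, at 67.1 ± 1.2 TPM, ahead of Myod1 at 53.9 ± 3.3 TPM. These are levels per length and were not tested between genes.

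Myod1 (ENSMUSG00000009471, chr7:46376474-46379099, plus strand, GRCm38) lay 1.29-fold above siCont after Fem1b depletion and below siCont in both groups given the Keap1 siRNA. The libraries had 63.3, 67.2 and 67.0 CPM in siFem1b/Keap1, 114, 108 and 119 CPM in siFem1b, and 64.4, 58.0 and 65.9 CPM in siKeap1, against 88.0, 86.4 and 90.5 CPM in siCont. Every siFem1b library was above, and every siKeap1 and siFem1b/Keap1 library below, all siCont libraries. Such separation was common among the 14577 tested genes. In siFem1b 4534 genes lay wholly above siCont and 4733 wholly below. The counts were 3251 and 4207 in siKeap1, and 5122 and 5124 in siFem1b/Keap1. The log2 fold change against siCont was 0.37 in siFem1b (SE 0.049, adjusted p = 2.4e-06, edgeR quasi-likelihood test with Benjamini-Hochberg adjustment over all tested genes). It was -0.49 in siKeap1 (SE 0.050, adjusted p = 1.9e-07) and -0.42 in siFem1b/Keap1 (SE 0.050, adjusted p = 3.8e-07). siFem1b/Keap1 and siKeap1 overlapped, with a difference of 0.07 on the log2 scale (95% interval -0.037 to 0.174, adjusted p = 0.248). With libraries scaled by their totals alone that difference was 0.16 and passed the test (adjusted p = 0.0075).

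Myf5 (ENSMUSG00000000435, chr10:107482908-107486134, minus strand) more than doubled wherever Fem1b was depleted, with or without Keap1. It had 75.1, 75.0 and 74.0 CPM in siFem1b/Keap1 and 79.4, 75.1 and 73.8 CPM in siFem1b, against 31.9, 35.7 and 34.9 CPM in siCont. The rise was 2.19-fold in siFem1b/Keap1 (log2 fold change 1.13, SE 0.051, adjusted p = 5.8e-13) and 2.23-fold in siFem1b (1.16, SE 0.051, adjusted p = 7.1e-13). The siFem1b/Keap1 and siFem1b libraries overlapped, and the log2 difference between them was -0.03 (95% interval -0.129 to 0.074). The siKeap1 libraries, at 30.7, 28.35 and 31.7 CPM, lay below every siCont library by a small margin. Their log2 fold change of -0.17 passed the test (adjusted p = 0.013). It no longer passed without siCont replicate 2 (-0.15, adjusted p = 0.052), without siKeap1 replicate 2 (-0.13, adjusted p = 0.086) or in the first run alone (-0.07, adjusted p = 0.50).

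Myog (ENSMUSG00000026459, chr1:134289989-134292548, plus strand) had the widest range of the 9 genes. Its promoter is shown because the factors described here are themselves known to act on it, SIX4 at a MEF3 site, MEF2 proteins at an AT-rich MEF2 site and basic helix-loop-helix factors at E-boxes. The window chr1:134289754-134290053 (plus strand, RefSeq on GRCm38.p6) runs from 250 bases before to 50 after the start site. Capitals mark, from left to right, an E-box, the MEF3 site, the MEF2 site and a second E-box.
Myog promoter: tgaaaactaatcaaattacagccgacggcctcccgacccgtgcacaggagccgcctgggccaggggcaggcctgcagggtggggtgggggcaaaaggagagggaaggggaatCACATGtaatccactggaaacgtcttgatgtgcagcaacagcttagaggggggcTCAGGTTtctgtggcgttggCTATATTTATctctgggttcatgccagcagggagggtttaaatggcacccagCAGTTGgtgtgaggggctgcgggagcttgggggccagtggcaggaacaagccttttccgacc
The first bases of the matches lie at -138 and -12 (E-boxes, CANNTG), -84 (MEF3, TCAGGTT) and -64 (MEF2 site) from the start site. Both strands were searched and the motifs did not overlap here. Of 32851 promoter windows of 300 bases, 72.3% held an E-box, 7.66% a MEF2 site and 4.07% a MEF3 site. The last base of the MEF2 motif was left free after a stricter form was seen to miss this site.

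Myog libraries held 200, 210 and 140 counts in siFem1b/Keap1, 2329, 2095 and 2368 in siFem1b, and 1, 1 and 2 in siKeap1, against 59, 58 and 54 in siCont. The 4 groups did not overlap. Between depleted groups too, many of the 14577 tested genes were separate. In siFem1b/Keap1 5087 lay wholly above siKeap1 and 5034 below, and 3727 lay above siFem1b and 3682 below. In siFem1b 4963 lay above siKeap1 and 4889 below. In CPM the means were 4.97 ± 0.67 in siFem1b/Keap1, 59.3 ± 2.6 in siFem1b and 0.0367 ± 0.0142 in siKeap1, against 1.57 ± 0.26 in siCont (SD, n = 3). Myog rose 38.2-fold in siFem1b (log2 fold change 5.26, SE 0.099, adjusted p = 1.1e-17) and 3.22-fold in siFem1b/Keap1 (1.68, SE 0.13, adjusted p = 6.5e-10). With 4 counts in all in siKeap1, against 171 in siCont, the scaled ratio was 41.9-fold lower, with an exact Clopper-Pearson 95% interval of 16.1 to 155.5 that covers counting error only. The gene passed the test in that comparison (adjusted p = 6.7e-10). Added to Fem1b depletion, Keap1 depletion left Myog 11.9-fold lower in siFem1b/Keap1 than in siFem1b (log2 fold change -3.57, SE 0.083, adjusted p = 3.2e-16).

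Myf6 (ENSMUSG00000035923, chr10:107492853-107494737, minus strand) was the least abundant factor gene in siCont and lies next to Myf5. It had 27, 24 and 26 counts in siFem1b/Keap1, 46, 36 and 32 in siFem1b, and 4, 5 and 3 in siKeap1, against 5, 4 and 10 in siCont. Both groups given the Fem1b siRNA stood above all libraries without it, and siKeap1 and siCont overlapped. The count ratio to siCont was 4.08-fold in siFem1b/Keap1 (exact 95% interval 2.44 to 7.14, adjusted p = 2.2e-05) and 5.79-fold in siFem1b (3.545 to 9.98, adjusted p = 1.0e-06). In siKeap1 the ratio was 1.55-fold lower than in siCont, with an interval of 0.715 to 3.505, so that a change was not detectable at this depth.

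Mef2a (ENSMUSG00000030557, chr7:67231163-67372858, minus strand) was lower with Keap1 depletion and higher with Fem1b depletion. It had 141.5, 148 and 135 CPM in siFem1b/Keap1, 199, 205 and 185 CPM in siFem1b, and 86.6, 85.3 and 82.3 CPM in siKeap1, against 107, 99.4 and 112 CPM in siCont. None of the 4 groups overlapped. The log2 fold change against siCont was 0.42 in siFem1b/Keap1 (SE 0.049, adjusted p = 4.5e-07), 0.89 in siFem1b (SE 0.049, adjusted p = 1.9e-11) and -0.33 in siKeap1 (SE 0.050, adjusted p = 3.3e-05). An antisense gene, Lysmd4, overlaps Mef2a and has counts amounting to 3.16% of those of Mef2a. Whether the counting used strand is not given in the sources used here, so reads of that overlap may be shared.

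Mef2c (ENSMUSG00000005583, chr13:83504034-83667080, plus strand), the isoform-rich MEF2 gene best known from heart and skeletal muscle, followed Fem1b depletion. Its libraries had 14.45, 15.5 and 15.1 CPM in siFem1b/Keap1 and 18.2, 20.2 and 18.1 CPM in siFem1b, against 7.565, 6.66 and 7.51 CPM in siCont. It rose 2.07-fold in siFem1b/Keap1 (log2 fold change 1.05, SE 0.074, adjusted p = 3.1e-10) and 2.59-fold in siFem1b (1.37, SE 0.072, adjusted p = 8.8e-12). The siKeap1 libraries, at 6.99, 6.60 and 7.11 CPM, overlapped siCont, and the log2 difference was -0.08 (95% interval -0.243 to 0.092). In siFem1b/Keap1 the gene lay below siFem1b (log2 fold change -0.33, SE 0.067, adjusted p = 0.00066). With an offset for effective transcript length the difference was -0.28 with a larger SE of 0.125 and did not pass (adjusted p = 0.11).

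Mef2d (ENSMUSG00000001419, chr3:88142372-88172086, plus strand) was higher in all 3 depleted groups. It had 188, 195 and 202.5 CPM in siFem1b/Keap1, 185, 159.9 and 171 CPM in siFem1b, and 169, 172 and 173 CPM in siKeap1, against 136, 126 and 129 CPM in siCont. All libraries of the depleted groups stood above all siCont libraries. The log2 fold change was 0.58 in siFem1b/Keap1 (SE 0.048, adjusted p = 3.2e-09), 0.40 in siFem1b (SE 0.048, adjusted p = 7.9e-07) and 0.40 in siKeap1 (SE 0.048, adjusted p = 2.1e-06). siFem1b and siKeap1 overlapped, with a log2 difference of 0.00 (95% interval -0.098 to 0.103). siFem1b/Keap1 lay above siFem1b by 0.18 on the log2 scale (adjusted p = 0.0044). With an offset for effective transcript length this was 0.15 and no longer passed (adjusted p = 0.081).

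Pax7 (ENSMUSG00000028736, chr4:139737062-139833528, minus strand) rose in both groups with Fem1b depletion. It had 16.1, 16.3 and 15.6 CPM in siFem1b/Keap1 and 16.7, 15.6 and 17.2 CPM in siFem1b, against 9.34, 9.59 and 9.315 CPM in siCont. It rose 1.70-fold in siFem1b/Keap1 (log2 fold change 0.77, SE 0.070, adjusted p = 1.1e-08) and 1.76-fold in siFem1b (0.81, SE 0.069, adjusted p = 7.3e-09), and the log2 difference between these groups was -0.05 (95% interval -0.184 to 0.093). In siKeap1 the libraries had 9.295, 8.37 and 7.79 CPM, just below siCont, with a log2 fold change of -0.15 that did not pass (adjusted p = 0.11). It passed without siKeap1 replicate 1 (-0.22, adjusted p = 0.033).

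Six4 (ENSMUSG00000034460, chr12:73099609-73113456, minus strand) rose in siFem1b, and was lower in siFem1b/Keap1 than in siFem1b (log2 fold change -0.46, adjusted p = 2.8e-07). It had 41.5, 43.3 and 42.6 CPM in siFem1b/Keap1, 56.7, 62.0 and 56.4 CPM in siFem1b, and 42.6, 44.4 and 42.3 CPM in siKeap1, against 46.2, 44.9 and 48.75 CPM in siCont. The siFem1b libraries were the highest of all 12. The log2 fold change against siCont was 0.32 in siFem1b (SE 0.047, adjusted p = 7.9e-06) and -0.14 in siFem1b/Keap1 (SE 0.048, adjusted p = 0.018). The second call was lost without siCont replicate 3 (-0.11, adjusted p = 0.088), without siFem1b/Keap1 replicate 1 (-0.12, adjusted p = 0.065), in the first run alone (adjusted p = 0.061), with a minimum of 5 CPM in 3 libraries (-0.07, adjusted p = 0.18) and with library totals alone (-0.01, adjusted p = 0.83). In siKeap1 the log2 fold change was -0.11 (adjusted p = 0.064), and it passed without siCont replicate 2 (-0.14, adjusted p = 0.037).

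**Figure D2:**
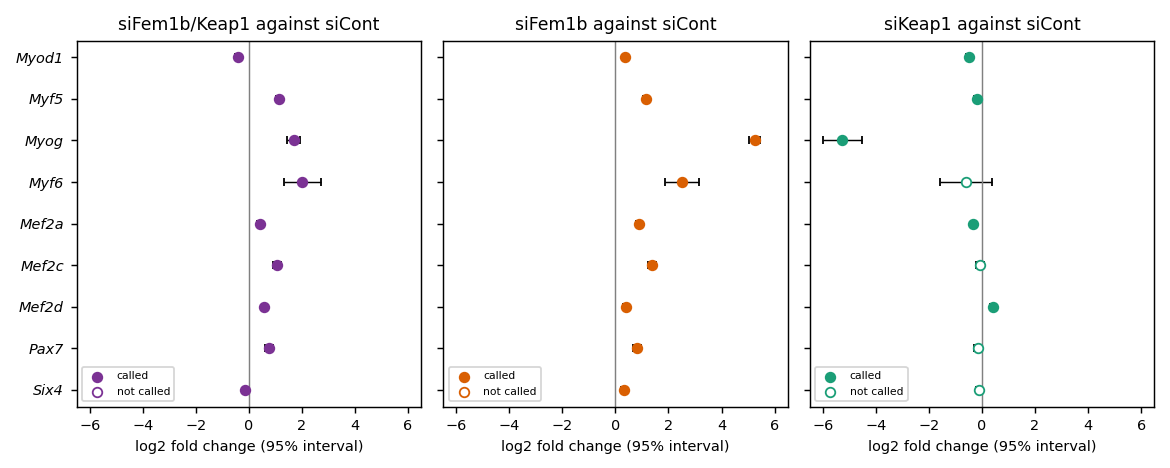
Log2 fold change against siCont (x axis, with 95% intervals of the fit) of each factor gene (rows) in siFem1b/Keap1, siFem1b and siKeap1, filled where the gene passed an adjusted p of 0.05. Myog had 1.68, 5.26 and a fitted value of -5.27 that rests on 4 counts in siKeap1.

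Counted together, all 9 factor genes were higher and 0 lower in siFem1b than in siCont, where 30.0% of all tested genes were called higher and 32.1% lower. Myf6 reached the count filter only through the groups given the Fem1b siRNA, with at most 0.2445 CPM in a library of the others, so it could hardly have been counted lower, and without it 8 of 8 were higher. The median log2 fold change of the 9 genes was 0.89, against -0.01 over all tested genes. In siFem1b/Keap1 against siCont, 7 were higher, Myf6 among them, and 2, Myod1 and Six4, lower, with 33.8% and 33.7% of all genes called in these directions and medians of 0.77 for the 9 and 0.01 for all genes. In siKeap1 against siCont, 1 gene, Mef2d, was higher and 4 were lower (Myod1, Myf5, Myog and Mef2a), where 18.4% and 23.8% of all genes were called. The medians were -0.17 for the 9 genes and -0.02 for all. With library totals alone, the share of called genes that were higher was 60.6% in place of 48.3% in siFem1b against siCont, and 62.1% in place of 50.1% in siFem1b/Keap1 against siCont, where the median of all genes moved by 0.12 on the log2 scale. These comparisons share the siCont libraries.

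Between depleted groups, siFem1b/Keap1 against siKeap1 had 7 factor genes higher, again with Myf6, and 0 lower, where 32.0% and 31.6% of all genes were called. Myod1 and Six4 were the 2 not called. In siFem1b against siKeap1, 8 were higher, Myf6 included, and 0 lower, with backgrounds of 32.1% and 31.8%, and Mef2d was the gene not called. In siFem1b/Keap1 against siFem1b, 1 was higher, Mef2d, and 5 were lower (Myod1, Myog, Mef2a, Mef2c and Six4), with backgrounds of 21.3% and 21.8%. With library totals alone, 61.7% of the calls in siFem1b/Keap1 against siKeap1 were higher, in place of 50.3%.

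Whether the response to the Keap1 siRNA depended on the Fem1b siRNA was tested as an interaction, the log2 fold change of siFem1b/Keap1 against siFem1b minus that of siKeap1 against siCont. Of the 9 genes, 1 was higher and 3 lower, where 6.11% and 5.32% of all genes were called in these directions. Six4 differed by -0.35 (SE 0.067, adjusted p = 0.0021), with a log2 fold change to the Keap1 siRNA of -0.46 in the presence of siFem1b and -0.11 without it. Myod1 differed by -0.30 (SE 0.070, adjusted p = 0.0080), with -0.79 in the presence of siFem1b and -0.49 without it. These differences passed in every alternative run for them.

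Mef2d and Myog passed by a narrow margin. Mef2d differed by -0.21 (adjusted p = 0.0499), with 0.18 in the presence of siFem1b and 0.40 without it, and failed when any of siCont replicates 2 and 3, siKeap1 replicates 1 to 3, siFem1b replicate 1 or siFem1b/Keap1 replicates 1 and 2 was left out (log2 differences -0.22 to -0.16, adjusted p up to 0.14). Myog differed by 1.70 (SE 0.52, adjusted p = 0.039), and failed when any of 9 libraries was left out, all except siCont replicate 3, siFem1b replicate 3 and siFem1b/Keap1 replicate 3 (log2 differences 1.50 to 2.04 over the 12 libraries left out in turn). The Myog value rests on the 4 counts in siKeap1. From the counts, Myog was 11.9-fold lower in siFem1b/Keap1 than in siFem1b (exact 95% interval 10.9 to 12.95) and 41.9-fold lower in siKeap1 than in siCont (16.1 to 155.5). For Mef2c the difference of -0.25 did not pass (adjusted p = 0.14), nor did that of Mef2a (-0.15, adjusted p = 0.21), Myf5 (0.15, adjusted p = 0.22), Pax7 (0.11, adjusted p = 0.56) or Myf6 (0.11, adjusted p = 0.92).

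**Figure D3:**
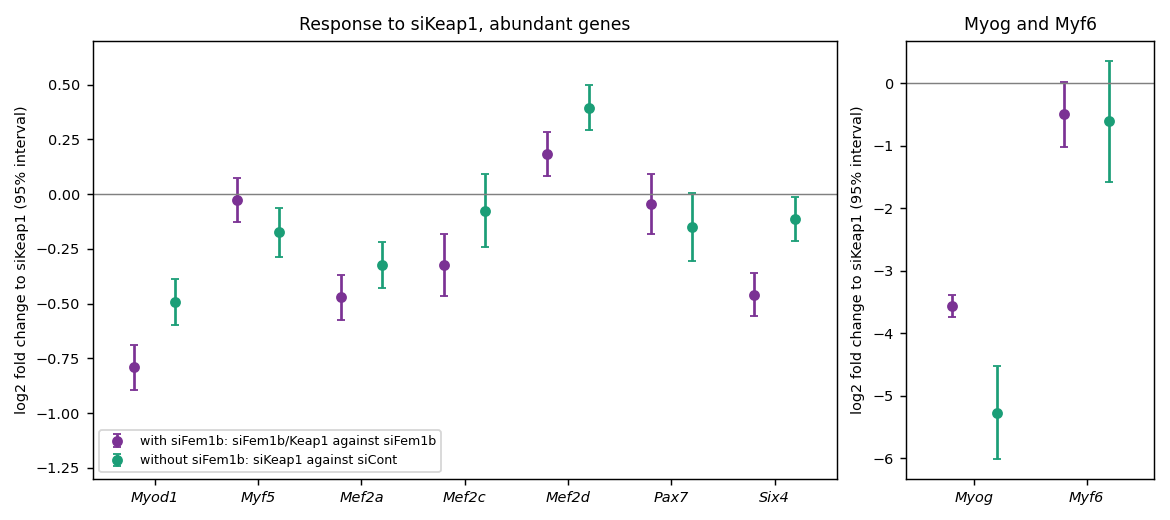
Log2 fold change to the Keap1 siRNA (y axis, with 95% intervals of the fit) with siFem1b (siFem1b/Keap1 against siFem1b, left point) and without it (siKeap1 against siCont, right point). Six4 and Myod1 show separate intervals, at -0.46 and -0.11 for Six4 and -0.79 and -0.49 for Myod1. So do Mef2d, at 0.18 and 0.40, and Myog, at -3.57 and -5.27, whose interaction calls were lost in several alternatives.

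The MEF2 genes are spliced into forms that differ in 1 pair of mutually exclusive coding exons, of which the downstream one, alpha2, is known from differentiated muscle. In Mef2d these are chr3:88158034-88158171 and chr3:88158221-88158355 on the plus strand (GRCm38, GENCODE annotation), of 138 and 135 bases. They are shown in full, in lower case, because the shares below are of transcripts that hold one or the other.
Mef2d upstream exon: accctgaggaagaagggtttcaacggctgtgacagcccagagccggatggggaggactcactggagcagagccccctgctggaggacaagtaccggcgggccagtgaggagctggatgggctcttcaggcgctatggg
Mef2d downstream exon: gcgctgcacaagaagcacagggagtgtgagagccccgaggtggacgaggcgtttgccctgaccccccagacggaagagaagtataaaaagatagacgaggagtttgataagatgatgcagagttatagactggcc
Aligned, they share 74 bases, 51.4% of the alignment. Shares of transcripts are taken from the authors' length-corrected estimates, and the number of reads that tell the forms apart is not known here.

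Transcripts with the downstream exon made up 3.33% ± 0.33 of Mef2d TPM in siFem1b/Keap1 (SD, n = 3), 4.45% ± 0.68 in siFem1b and 5.295% ± 0.74 in siKeap1, against 5.645% ± 1.05 in siCont. The siFem1b/Keap1 libraries had the 3 lowest shares of the 12. In Mef2a the shares were 37.7% ± 3.6 in siFem1b/Keap1, 34.6% ± 1.9 in siFem1b and 38.7% ± 1.9 in siKeap1, against 36.4% ± 3.1 in siCont, and siFem1b lay below siKeap1 while the other groups overlapped. In Mef2c they were 11.4% ± 7.3 in siFem1b/Keap1, 16.7% ± 5.8 in siFem1b and 10.8% ± 6.1 in siKeap1, against 9.48% ± 2.20 in siCont, where siFem1b lay above siCont and the other groups overlapped. None of 6 exact stratified permutation tests, of 6 libraries with a siRNA against 6 without it, passed after adjustment over the 6. The smallest p these permutations can give is 0.005. For Mef2d the share averaged 3.89% in the 6 libraries with siFem1b and 5.47% in the 6 without, a difference of -1.58 percentage points (2-sided exact p = 0.01, adjusted p = 0.06). Without siCont replicate 2 the difference was -1.87 points and passed (adjusted p = 0.03). A 21-base coding exon of Mef2d (chr3:88161781-88161801), picked out after its values were seen, is held by 1 transcript, whose share was 10.2% ± 1.5 in siFem1b/Keap1, 12.7% ± 2.0 in siFem1b and 6.51% ± 1.37 in siKeap1, against 7.81% ± 1.28 in siCont. The siFem1b libraries lay above all siKeap1 and siCont libraries, and siFem1b/Keap1 overlapped siCont, with no test. The corresponding 24-base exon of Mef2c (chr13:83654598-83654621) went another way, at 38.9% ± 2.5 in siFem1b/Keap1, 24.1% ± 1.8 in siFem1b and 25.1% ± 5.9 in siKeap1, against 29.2% ± 5.6 in siCont, with the siFem1b/Keap1 libraries above the other 9. In Mef2a (24 bases, chr7:67244521-67244544) the shares were 39.3% ± 3.6 in siFem1b/Keap1, 42.7% ± 2.3 in siFem1b and 38.0% ± 1.8 in siKeap1, against 38.35% ± 2.54 in siCont, and every group overlapped siCont.

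**Figure D4:**
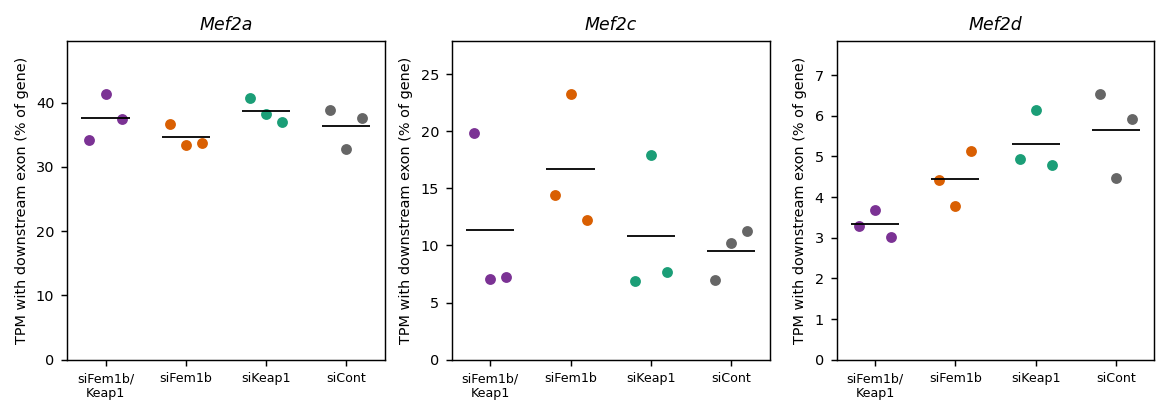
Share of each MEF2 gene's TPM in transcripts with the downstream exon of the pair (y axis, percent), per library (points) with group means (lines). Mef2d stays between 3.03% and 6.54%, with the siFem1b/Keap1 libraries lowest, while Mef2c runs from 6.93% to 23.3%.

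The other genes of the pathway are given by lists that were not trimmed by how they moved. Earlier results of these data were known when the lists were chosen, so the counts below describe the lists and do not test them. Of 19 tested partners and inhibitors of the basic helix-loop-helix factors, 12 were higher and 2 lower in siFem1b than in siCont, where 30.0% of all tested genes were higher and 32.1% lower, and the median log2 fold change was 0.50, against -0.01 over all genes. Id3, an inhibitor that binds E-proteins without binding DNA, had 166 ± 3.8 CPM in siFem1b, against 77.1 ± 6.5 CPM in siCont (2.15-fold, adjusted p = 1.4e-12). Hey1, a Notch-responsive repressor, rose 4.05-fold to 19.15 ± 1.28 CPM in siFem1b, against 4.73 ± 0.53 CPM in siCont. Tcf4, an E-protein partner, rose 1.585-fold, and Bhlhe41, a repressor of MYOD1 activity, 1.82-fold. Thus both partner and inhibitor genes were among those that rose. In siKeap1 against siCont, 5 of the 19 were higher and 10 lower, where the shares over all genes were 18.4% and 23.8%. Msc, which encodes the repressor MyoR, had 17.2 ± 0.39 CPM in siKeap1 and 10.4 ± 1.1 CPM in siCont (1.66-fold), and Heyl had 0.417 ± 0.119 CPM in siKeap1 and 1.94 ± 0.46 CPM in siCont. In siFem1b/Keap1 against siFem1b, 12 were lower and 1 was higher (21.8% and 21.3% over all genes). The higher one was Msc, at 16.2 ± 0.72 CPM in siFem1b/Keap1 and 8.53 ± 0.31 CPM in siFem1b.

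Of 22 tested coactivators, 9 were higher and 8 lower in siFem1b than in siCont, and the median log2 fold change was 0.03. Over all genes 30.0% were higher and 32.1% lower, and the list too had members called in both directions. Rbm24, which encodes an RNA-binding protein of muscle, had 11.3 ± 0.44 CPM in siFem1b, against 0.300 ± 0.126 CPM in siCont. It was at 0 in every siKeap1 library, and had 0.7005 ± 0.176 CPM in siFem1b/Keap1. At its siCont level Rbm24 could hardly have been called lower in another group. Vgll2, a muscle cofactor of TEAD factors, fell to 18.2 ± 1.3 CPM in siKeap1, against 75.4 ± 4.4 CPM in siCont (log2 fold change -2.05, adjusted p = 8.1e-14), where 4 of the list were higher and 8 lower, against 18.4% and 23.8% of all genes. Its level was 50.7 ± 1.2 CPM in siFem1b/Keap1, against 105 ± 9.2 CPM in siFem1b. Prmt5, an arginine methyltransferase, fell to 94.6 ± 1.8 CPM in siFem1b, against 149 ± 3.0 CPM in siCont.

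All 9 repressors of MEF2 were tested, and 4 were higher and 3 lower in siFem1b than in siCont, again in both directions, as were 30.0% and 32.1% of all genes. Of the class II deacetylases, which hold MEF2 proteins inactive, Hdac9 rose 2.17-fold to 3.98 ± 0.46 CPM in siFem1b, against 1.83 ± 0.23 CPM in siCont, and Hdac5 rose 1.31-fold, while Hdac7 fell to 65.1 ± 5.0 CPM in siFem1b, against 83.45 ± 3.98 CPM in siCont. In siKeap1, 1 was higher and 5 lower than in siCont (18.4% and 23.8% of all genes), Hdac4 and Hdac5 among the lower. In siFem1b/Keap1 against siFem1b, 0 were higher and 8 lower, where 21.3% and 21.8% of all genes were called, with a median log2 fold change of -0.22.

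Of 17 genes of the network around PAX7, SIX4 and the EYA coactivators, 9 passed the filter, which a gene expressed in a single group also passes. In siFem1b against siCont, 7 of the 9 were higher and 1 lower, beside 30.0% and 32.1% of all genes. Eya4, a coactivator of SIX4, had 37.7 ± 2.8 CPM in siFem1b, against 19.4 ± 1.2 CPM in siCont (1.94-fold, adjusted p = 1.1e-10). Foxk1, a forkhead gene of myogenic progenitors, rose to 75.1 ± 4.7 CPM in siFem1b, against 62.4 ± 1.9 CPM in siCont. In siKeap1 against siCont, 1 was higher, Eya3, and 4 were lower (18.4% and 23.8% of all genes), with Eya1 at 21.5 ± 0.43 CPM in siKeap1 and 26.3 ± 0.83 CPM in siCont. In siFem1b/Keap1, Eya4 had 30.45 ± 0.61 CPM, above siCont and below siFem1b, and 6 of the 9 were higher than in siCont and 0 lower, where 33.8% and 33.7% of all genes were called.

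Among 14 tested satellite cell genes, the neighbours of Pax7, 10 were higher and 4 lower in siFem1b than in siCont, beside 30.0% and 32.1% of all genes. This list includes Itga7, Met, Fgfr4 and Ncam1, which also stand among the myoblast markers. Notch3 rose 2.20-fold to 111 ± 2.4 CPM in siFem1b, against 50.4 ± 1.4 CPM in siCont, and the chemokine receptor gene Cxcr4 4.24-fold. Megf10, an engulfment receptor of satellite cells, fell to 143 ± 4.4 CPM in siFem1b, against 213 ± 14 CPM in siCont. In siKeap1 5 were higher and 8 lower than in siCont (18.4% and 23.8% of all genes), with Spry1, an inhibitor of growth factor signalling, at 0.404 ± 0.168 CPM in siKeap1 and 2.27 ± 0.34 CPM in siCont.

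**Figure D5:**
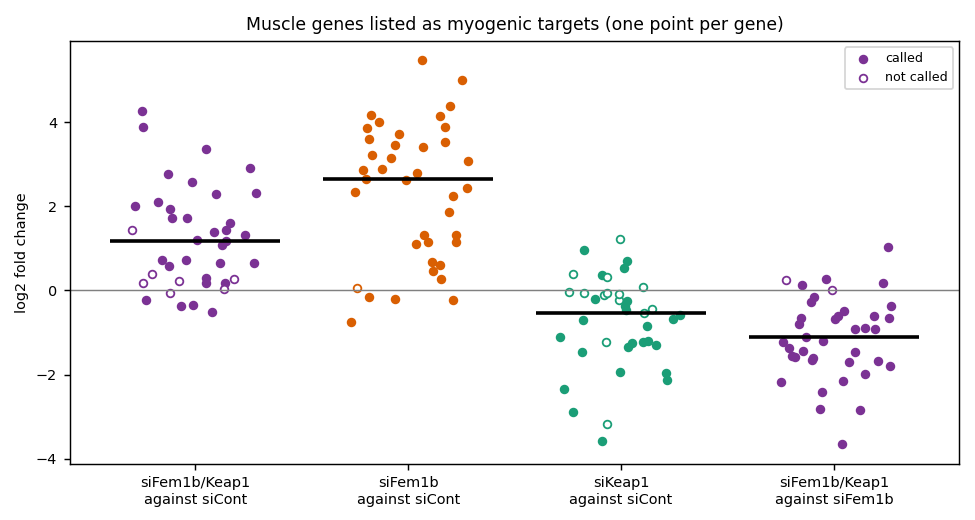
Log2 fold change (y axis) of 39 tested muscle genes listed as targets of the myogenic and MEF2 factors, one point per gene, filled where the gene passed an adjusted p of 0.05, with the median as a line. The medians are 1.18 in siFem1b/Keap1 against siCont, 2.66 in siFem1b against siCont, -0.55 in siKeap1 against siCont and -1.10 in siFem1b/Keap1 against siFem1b.

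Muscle genes known as targets of these factors, contractile and neuromuscular junction genes in the main, were tested for 39 of 40 listed. A gene expressed in a single group also passes the filter, and where near 0 in siCont it could hardly be called lower. How many of the 39 are of this kind was not counted. In siFem1b, 34 were higher and 4 lower than in siCont, where 30.0% and 32.1% of all genes were called, with a median log2 fold change of 2.66, against -0.01 over all genes. Neb, the giant thin filament protein nebulin, had 34.5 ± 1.7 CPM in siFem1b and 1.89 ± 0.17 CPM in siCont (18.2-fold, adjusted p = 6.7e-17). Myl1, a myosin light chain, rose 14.7-fold, and Klhl41, a sarcomere assembly factor, 16.0-fold in siFem1b. In siFem1b/Keap1 against siCont, 28 were higher and 4 lower (33.8% and 33.7% of all genes), with a median of 1.18. Neb had 11.4 ± 0.60 CPM and Myl1 16.3 ± 1.1 CPM in siFem1b/Keap1, each below its siFem1b level.

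In siKeap1 against siCont, 4 of the 39 were higher and 21 lower, beside 18.4% and 23.8% of all genes. Myl1 had 0.427 ± 0.106 CPM in siKeap1 and 3.28 ± 0.49 CPM in siCont. Cdh15, the myoblast adhesion gene M-cadherin, had 193 ± 9.0 CPM in siKeap1 and 288 ± 8.9 CPM in siCont. In siFem1b/Keap1 against siFem1b, 4 were higher and 33 lower, beside 21.3% and 21.8% of all genes. Listed genes that passed the filter through the siFem1b libraries alone would be expected to fall here. How many of the 39 are of this kind was not counted, so the 2 counts are not set evenly against those shares. The embryonic myosin gene Myh3 had 2.47 ± 0.13 CPM in siFem1b/Keap1 and 17.65 ± 1.24 CPM in siFem1b (log2 fold change -2.83, adjusted p = 2.3e-13), and Actc1, cardiac actin, 1.275 ± 0.175 CPM in siFem1b/Keap1 and 16.3 ± 1.0 CPM in siFem1b. Acta1, skeletal actin, went the other way and was highest with both siRNAs, at 132.5 ± 7.9 CPM in siFem1b/Keap1, 64.4 ± 1.5 CPM in siFem1b and 13.5 ± 0.55 CPM in siKeap1, against 6.89 ± 0.85 CPM in siCont. These targets include Cdh15 and Des, which also stand among the myoblast markers.

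The genes whose pattern over the 12 libraries lay nearest to each factor were found by the root mean square difference of log2 CPM, each gene centred on its own mean, among 11998 genes with a mean of at least 1 CPM. This measure is a description, and the libraries share their groups. Nearest to Myog were Igf2, Rbm24, C1qtnf3 and Tnnt1, at differences of 0.70 to 0.99 on the log2 scale, against a spread of 3.37 of Myog itself. Igf2 averaged 2.63 CPM in siFem1b/Keap1, 23.5 in siFem1b and 0.02 in siKeap1, against 0.31 CPM in siCont. Nearest to Myod1 were Cnn3, Cdh15, Bsdc1 and Zfp651 (from 0.07 to 0.09), with Cdh15 also on the target list. Nearest to Mef2a were Rb1, Sema3a, Tanc2 and Pkp1, and Rb1, the retinoblastoma gene, averaged 35.6 CPM in siFem1b/Keap1, 47.9 in siFem1b and 21.8 in siKeap1, against 26.4 CPM in siCont. Mef2c lay nearest Lrch1, Ablim1, Map2 and Pmaip1, Mef2d nearest Bcl2l1, Hk1, Rsu1 and Scamp2, and Myf5 nearest Ppfia3, Tppp3, Ralgds and Ccser1. Among the 4 nearest to Pax7 were Cacnb3, Adamts4 and Pid1, and Six4 lay nearest Sulf1, Slc41a2, Scarb2 and Zfp260.

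Of the other factor genes, promoter windows of Myf5, Mef2a, Mef2c, Mef2d, Pax7 and Six4 were searched in the same way, with the core of the antioxidant response element (TGACNNNGC), through which NRF2 acts, and a TATA box (TATAAA) added. No window of the 7 matched genes held the antioxidant core, which 12.4% of all promoter windows hold. At that share so few windows can all lack the core, and the difference was not tested. Mef2a held a MEF2 site at -2 from its start site. Mef2c, with 3 start sites, held E-boxes at -234 and -100 and a MEF2 site at -146 of the first, and a MEF3 site at -248 and a TATA box at -107 of it. Six4 held a MEF3 site at -97 of its first start site, and Mef2d and Pax7 held none of the motifs searched. Myod1 and Myf6 were not matched in the promoter table. A match names letters in the window and is not a site that was measured here.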

How the data were processed

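RNA-seq tables of 12 libraries, each sequenced in 2 runs, were used. The submitters' processing notes name kallisto 0.44.0 and the mouse build mm10. The deposited tables give estimated counts (expected counts), TPM and effective lengths for 118489 transcripts per file, of which 98.5% matched GENCODE M21. Unmatched transcripts held 0.608% to 0.637% of a library's counts and were left out. The deposited estimated counts were summed per gene and over both runs and rounded. The deposited TPM were averaged over runs and summed per gene. The 12 second runs each matched their own first run best.

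The groups follow the labels. Genes passed filterByExpr, libraries were scaled by TMM (factors 0.952 to 1.045), and all 12 libraries were fitted with edgeR 4.0.16 (robust quasi-likelihood, R 4.3.3), 2-sided, with Benjamini-Hochberg adjustment over 14577 genes within each comparison and a threshold of 0.05. The common biological coefficient of variation was 0.05035. CPM are counts scaled to 1000000 by library size times TMM factor. The fit and the exact permutation test were tested on simulated data. For siFem1b against siCont with 100 genes changed, the fit recovered 87 at 1.5-fold and 94 at 2-fold. Each time 17 genes were called falsely beside those recovered, among 13821 tested. False calls thus made up a larger share of the calls than the threshold of 0.05 names. The simulation changed far fewer genes than were called in the data. Alternatives were DESeq2 1.42.0 (size factors and Wald test), library totals alone, other filters, single runs, a replicate block, a length offset, the compared groups only and each library left out. List genes named are up to 4 per comparison with the smallest p among called genes with a mean of at least 1 CPM. The 9 genes and the lists were chosen with earlier results of these data known. Intervals of count ratios cover counting error only. A few genes that the naming rules pick are not reported here.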

Additional observations from a re-analysis of the deposited data

Results flagged for a closer look

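The response to the Keap1 siRNA passed a test of the interaction with the Fem1b siRNA for 4 of the 9 factor genes (log2 fold change of siFem1b/Keap1 against siFem1b minus that of siKeap1 against siCont), where 6.11% of all genes were called higher and 5.32% lower. The difference was -0.30 for Myod1 and -0.35 for Six4, and these passed in every alternative run for them. It was -0.21 for Mef2d and 1.70 for Myog. Both of these calls were lost with a replicate block (adjusted p = 0.061 for Mef2d and 0.055 for Myog), with an offset for effective transcript length, and without any one of 8 libraries for Mef2d and 9 for Myog. The Myog call was also lost with the DESeq2 Wald test and in either run alone, but not with DESeq2 size factors. In its 3' untranslated region Six4 carries 1 seed match of siKeap1, 2 of siFem1b and 2 of siCont, and their part in the difference was not tested.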

How the results depend on the processing

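Of 63 results for single factor genes, 54 stayed on their side of the threshold in all alternatives run. Over 1362 alternative values 1324 kept their side of the threshold, 35 lost the call, 3 gained one and 0 called values reversed. Some values that were not called changed sign, as for Myf5 in siFem1b/Keap1 against siFem1b (-0.03 in the main fit, up to 0.03). The cause was not tested for any of these. Deviations of same-numbered libraries from their group means had correlations from -0.53 to 0.42. Differently numbered libraries were not compared, so whether the replicate numbers pair the libraries cannot be told from these values. With a replicate block, the interaction called 1482 genes in place of 1667, and the factor genes called higher in it, 1 in the main analysis (Myog, 1.70 in the replicate block with an adjusted p of 0.055), were 0 with it. The Mef2d interaction was lost with it too (-0.21, adjusted p = 0.061), and no other call on a factor gene changed with the block.

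Factor genes called higher in the interaction were also 0 with the DESeq2 Wald test (Myog 1.81, adjusted p = 0.091), with the first run alone (0.72, adjusted p = 0.64), with the second run alone (2.07, adjusted p = 0.073) and with the length offset (1.70, adjusted p = 0.055), and 0 to 1 over the libraries left out in turn. The interaction called 929 genes in the first run alone and 822 with the length offset. With that offset 0 factor genes were higher in siFem1b/Keap1 than in siFem1b, and the Mef2d interaction became -0.27 (adjusted p = 0.089). Factor genes lower in siFem1b/Keap1 than in siCont were 1 with library totals alone, 1 with at least 5 CPM in 3 libraries, 1 in the first run alone, and 1 to 2 over the libraries left out, where Six4 was the gene lost. Myf5 in siKeap1 was -0.14 (adjusted p = 0.056) with the compared groups only. The Mef2d exon difference ran from -1.87 to -1.36 points over the libraries left out and was -0.63 points (adjusted p = 0.075) with estimated counts in place of TPM. As a share of transcripts with either exon, an alternative chosen after seeing the data, it was -1.62 points (adjusted p = 0.09), and the other exon results stayed on their side. Myog in siKeap1 (4 counts) and Myf6 (3 to 10 counts per library without siFem1b) are limited by depth.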
